A study of Mus musculus with 4 samples.

Results

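Splenic CD4+ T cells of knockout (KO) mice, taken 4 days after immunization with sheep red blood cells (day 4), were compared with those of unimmunized KO mice (day 0). The cells came from a 10x 5′ single-cell RNA library of T cells in which 4 pools were marked with hashtag antibodies. A barcode was kept with at least 200 genes, under 10% mitochondrial UMIs (unique molecular identifiers, each 1 captured RNA molecule), a top hashtag of at least 10 UMIs and at least 3 times the next, a Cd3e UMI and no Cd79a UMI. This left 3658 KO day 4 and 1166 KO day 0 cells, 4824 in all, of 7713 T cells kept over the 4 pools and 15646 barcodes in the series.

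KO mice are described as C57BL/6NRj with a Cre allele that acts in B cells and Il2rb fl/fl. The T cells studied here were not the target of the deletion and lived in mice whose B cells were. The control pools, named Cre in the labels, were 1977 day 4 and 912 day 0 T cells. The genotype field gives KO and control mice the same alleles, so genotype was taken from the hashtag names. Day 4 mice received the sheep cells intraperitoneally and day 0 mice did not. The protocol names magnetic isolation with a naive CD4+ T cell kit. Kits of that kind are made to remove regulatory and antigen-experienced cells, yet cells with Foxp3, Pdcd1 and Cxcr5 UMIs were present, so the gate shares given further on are shares of the recovered cells and not of all splenic CD4+ T cells. The sources used here do not give how many mice made up a pool, or their age. Each side of the comparison was therefore 1 pool without replicates: no difference was tested, and every interval below is a 95% interval that covers counting error only.

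CD4+ T cells help B cells make antibody. Those that recognize an antigen such as that of sheep red blood cells divide, and some become follicular helper T cells, which carry CXCR5 and PD-1, depend on the repressor BCL6 and feed germinal center B cells with interleukin-21 and interleukin-4. Regulatory T cells, marked by FOXP3, restrain the response and use interleukin-2 through a receptor of alpha, beta and gamma chains, of which Il2rb encodes the beta chain that is also part of the interleukin-15 receptor.

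The comparison rests on the tag that marks each pool, a DNA barcode on an antibody, shown here whole because it is all that separates day 4 from day 0 cells in the shared library.
KO day 4 hashtag: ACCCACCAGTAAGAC
KO day 0 hashtag: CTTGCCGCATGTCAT
The median cell carried 2261 UMIs of its own hashtag in KO day 4 cells against 94 of the next, and 1801 against 112 in KO day 0 cells. The hashtag margin left out 1008 of 9196 barcodes, and the Cd3e and Cd79a rule a further 475.

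The pools held 22552658 UMIs in KO day 4 and 5768589 in KO day 0 cells, with medians of 5339 and 4659.5 UMIs per cell. Cells over 15000 UMIs numbered 121 in KO day 4 and 5 in KO day 0 cells. Cd4, the coreceptor of helper T cells, had a UMI in 68.3% of KO day 4 and 65.0% of KO day 0 cells, while Cd8a had one in 3 cells of KO day 4 and in 0 of 1166 of KO day 0, which allows up to 0.257%. Cd8b1 had a UMI in 5.60% of KO day 4 and 4.63% of KO day 0 cells. Of 5 other genes of CD8 T cells, those cells had Ccl5 at 23.01 CPM (UMIs of a gene scaled to 1000000 UMIs in all), against 131 CPM in the other KO T cells, Eomes at 4.13 against 8.71 CPM, Gzmm at 1.18 against 1.35 CPM, Cd7 at 46.0 against 38.2 CPM, and no UMI of Gzmk. Ms4a1, a B cell gene, had no UMI in any pool. Of the kept barcodes, 60 also occurred in the other library, 37 of them among KO T cells.

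Il2rb RNA in B cells, where the gene is deleted in KO mice, was too rare in all 4 pools to check the deletion. It had 4 UMIs in 1950 KO day 4 B cells and 0 in 982 KO day 0 B cells, against 11 UMIs in 1487 control day 4 and 0 in 1101 control day 0 B cells. The zeros allow a share of B cells with a UMI of up to 0.305% in KO day 0 and 0.272% in control day 0. In T cells it was counted at 104 CPM in KO day 4 and 79.0 CPM in KO day 0 cells, 1.31-fold higher (1.19 to 1.46), and at 115 and 86.0 CPM in control day 4 and control day 0 cells. The alpha chain gene Il2ra stood at 45.5 CPM in KO day 4 and 37.6 CPM in KO day 0 cells (1.21-fold, 1.04 to 1.41), and was 0.909-fold with KO day 0 cells weighted to the gate shares of day 4. The gamma chain gene Il2rg stood at 431 CPM in KO day 4 and 414 CPM in KO day 0 cells (1.04-fold, 0.994 to 1.09).

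On day 4, KO T cells held more RNA of follicular helper genes, of cell division genes and of a set of activation and effector genes, and somewhat less of naive and quiescence genes. Of 9549 genes with at least 100 UMIs over both pools, 489 were at least 1.5-fold higher in KO day 4 than in KO day 0 cells (5.12%) and 103 at least 1.5-fold lower (1.08%). The median gene was 0.04 higher on the log2 scale, and the median size of a difference was 0.15. Of these, 32 higher and 14 lower genes had over 10% of the UMIs of the higher pool in 1 cell. The count of higher genes depends on the largest cells: without cells over 15000 UMIs, 247 genes were higher and 78 lower. The excess of higher over lower genes depends on the UMI filter. KO day 4 cells held most of the UMIs, so a gene high on day 4 passes the filter at a lower level. At 20 UMIs or more 1134 genes were higher and 454 lower. With only a UMI in each pool required, 1612 genes were higher and 1671 lower. That rule leaves out genes seen in a single pool, so those 2 counts are not free of a filter either. In a pool, more cells of a type and more RNA per cell cannot be told apart by such levels, so gated subsets follow further on.

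**Figure D1:**
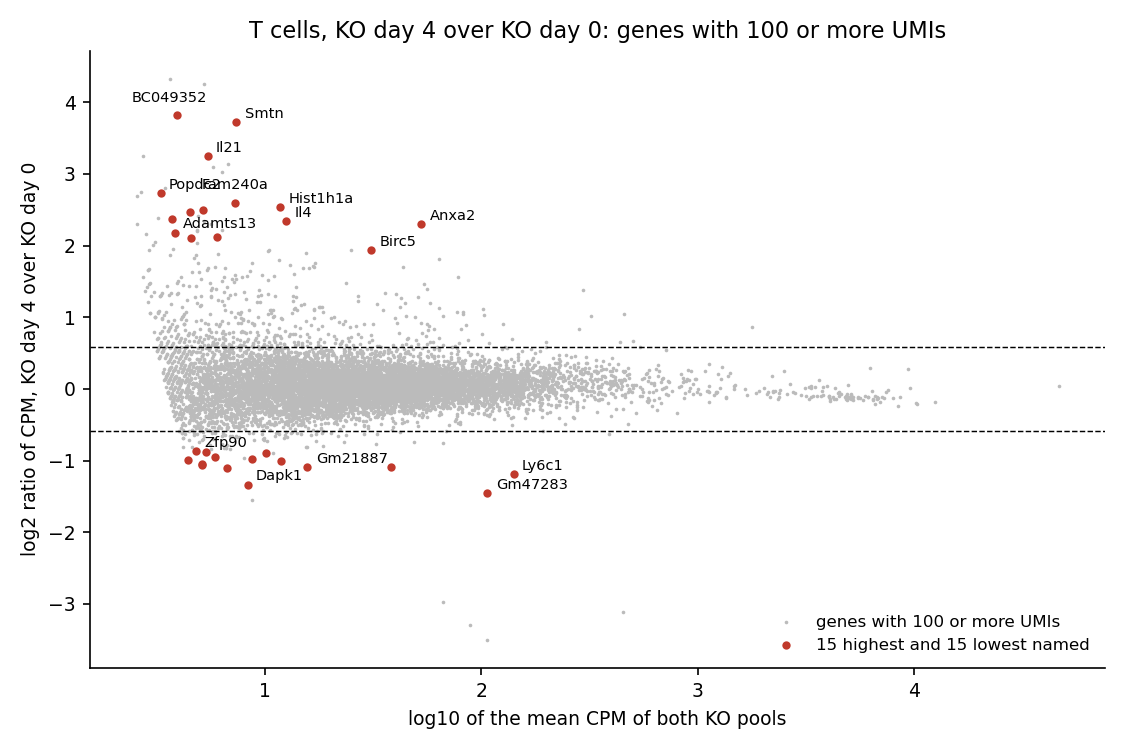
Ratio of KO day 4 to KO day 0 T cells (log2 of the CPM ratio, vertical axis) against the mean level over both pools (log10 of CPM, horizontal axis) for 9549 genes, with the 15 highest and 15 lowest named genes in red and dashed lines at 1.5-fold. Most genes lie close to 0, with 489 at or above the upper line and 103 at or below the lower one.

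Follicular helper genes were mostly higher. Of 28 genes listed for this state, 27 had enough UMIs, 19 were at least 1.5-fold higher and none lower, with a median log2 ratio of 0.68, beside 5.12% higher and 0.04 over all genes. Fewer were past the fold under other weightings: 11 of 27 with each cell given equal weight, 13 of 26 without cells over 15000 UMIs, and 6 of 17 at a median of 0.36 with cells thinned to 1500 UMIs. None was past it downward in these settings. Il21, the cytokine of germinal center help, had 223 UMIs in 90 KO day 4 cells and 6 UMIs in 4 KO day 0 cells, or 9.89 and 1.04 CPM, a ratio of 9.51 (4.30 to 26.2), which was 3.49 when thinned, 4.16 with equal weight per cell and 4.51 with KO day 0 cells weighted to the gate shares of day 4. Il4, which drives class switching, had 475 UMIs in 137 KO day 4 and 24 UMIs in 13 KO day 0 cells, or 21.1 and 4.16 CPM, a ratio of 5.06 (3.36 to 7.98). Both cytokines were thus carried by few cells of either pool.

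Receptors and regulators of the same state were more widely detected. Pdcd1, encoding PD-1, stood at 24.4 CPM in KO day 4 and 6.59 CPM in KO day 0 cells (3.71-fold, 2.67 to 5.30). Cxcr5, the receptor that draws T cells to B cell follicles, stood at 13.3 and 5.72 CPM (2.32-fold, 1.61 to 3.43). Bcl6, the repressor that defines the state, stood at 22.6 CPM in KO day 4 and 12.7 CPM in KO day 0 cells (1.78-fold, 1.39 to 2.31). Each of these receptor and regulator intervals lay above 1. Icos, a costimulatory receptor needed for follicular help, was 2.07-fold higher at 111 CPM in KO day 4 and 53.7 CPM in KO day 0 cells. Maf and Irf4, transcription factors of activated helper cells, were 2.16-fold and 3.23-fold higher, and Tox2, a transcription factor of follicular helper cells, 3.49-fold. Sh2d1a, the adaptor that steadies contact with B cells, stood at 155 CPM in KO day 4 and 103 CPM in KO day 0 cells, just past the fold at 1.505. Cd40lg, the ligand by which T cells license B cells, was at 122 CPM in KO day 4 and 146 CPM in KO day 0 cells (0.831, 0.769 to 0.898). Some of these values depend on how cells are weighted: with each cell given equal weight Cxcr5 was 1.46-fold, Pdcd1 1.97-fold and Il4 1.77-fold higher, and thinned to 1500 UMIs per cell Cxcr5 was 1.24-fold higher.

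**Figure D2:**
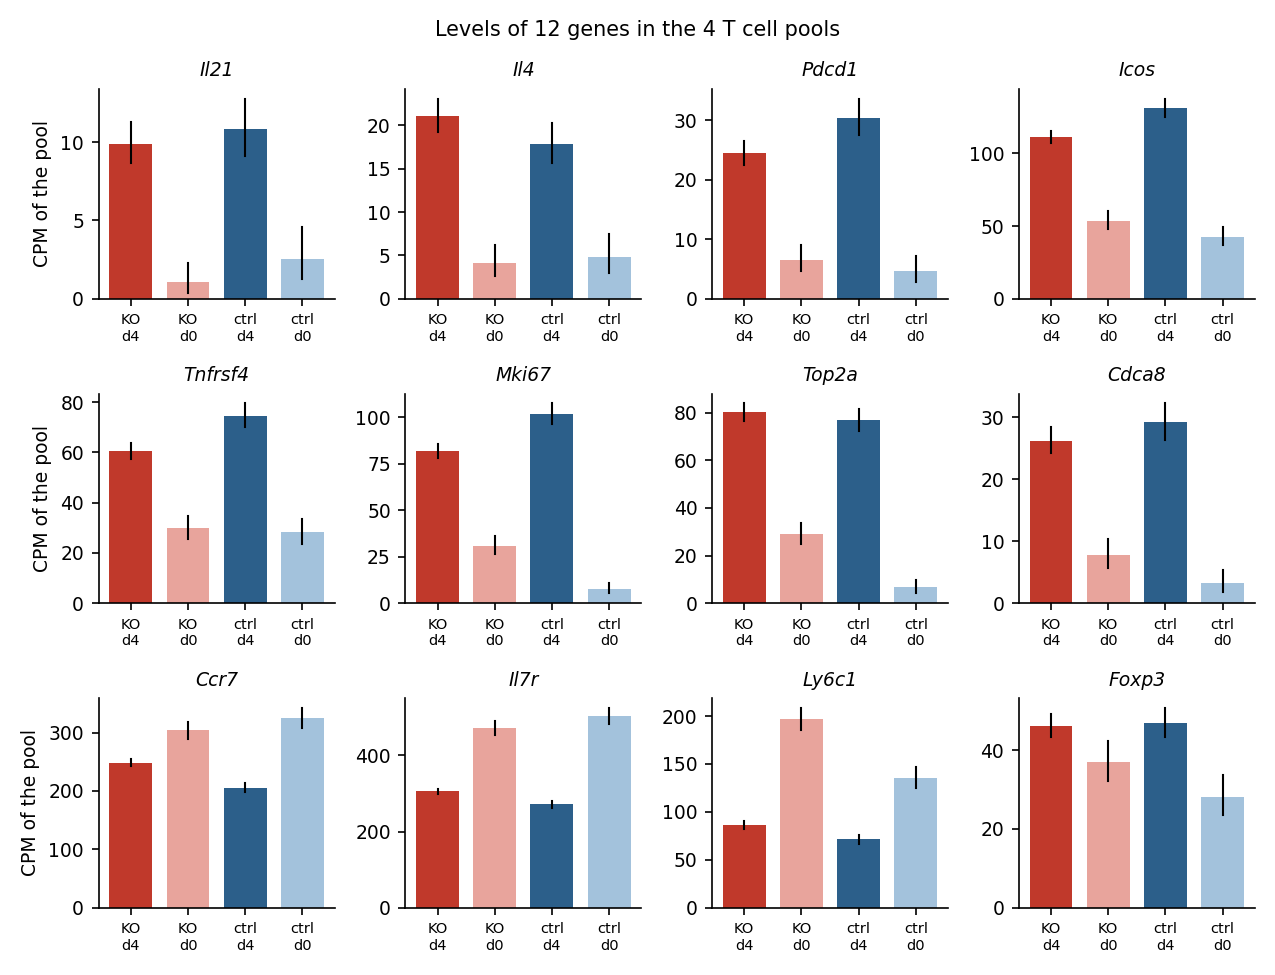
Levels of 12 genes (CPM of the pool, each panel from 0) in the 4 T cell pools, KO day 4, KO day 0, control (ctrl) day 4 and control day 0, with lines for the 95% Poisson interval of the count. KO day 4 lies above KO day 0 for Il21, Il4, Pdcd1, Icos, Tnfrsf4, Foxp3 and the division genes Mki67, Top2a and Cdca8, and below it for Ccr7, Il7r and Ly6c1.

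Control T cells showed the same direction for this list. Of 27 follicular helper genes with enough UMIs in the control pools, 22 were at least 1.5-fold higher on day 4, with a median log2 ratio of 1.62 beside 0.68 in KO cells. The background also differed: 637 of 8819 genes (7.22%) were past the fold upward and 217 (2.46%) downward in control cells. Among 8806 genes counted in both genotypes, 371 were higher on day 4 in KO cells and 629 in control cells, and 279 in both, which is 75.2% of the KO and 44.4% of the control genes. Of the lower genes 27 were shared, of 70 in KO (38.6%) and 214 in control cells (12.6%). These are counts of fold and carry no test of the difference between genotypes.

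Cell division genes formed the list with the highest median. Of 36 listed, 35 had enough UMIs and an interval above 1. In KO day 4 cells 29 were at least 1.5-fold higher and none lower, beside 5.12% and 1.08% of all genes. The median log2 ratio was 1.32. Birc5, a subunit of the chromosomal passenger complex, stood at 49.3 CPM in KO day 4 and 12.8 CPM in KO day 0 cells (3.84-fold, 3.04 to 4.93). Cdca8, another subunit of that complex, stood at 26.2 and 7.80 CPM (3.36-fold, 2.48 to 4.66). Mki67, a marker of cycling cells, was at 81.9 CPM in KO day 4 and 31.0 CPM in KO day 0 cells (2.64-fold, 2.26 to 3.10), from 203 and 26 cells. Top2a, the topoisomerase of mitosis, was at 80.03 and 29.1 CPM (2.75-fold, 2.35 to 3.24), from 220 and 31 cells. The replication sliding clamp Pcna (1.18-fold) and the helicase subunits Mcm2 (1.37-fold), Mcm3 (1.42-fold), Mcm4 (1.25-fold) and Mcm7 (1.40-fold), found in many more cells, were above 1 and under the fold.

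The day 0 level of division genes came from very few cells. In KO day 0 cells 1 cell held 12.7% of all division-list UMIs and 3 cells 31.2%, against 1.76% and 4.87% in KO day 4 cells. In control day 0 cells the same shares were 9.35% and 15.99%, and in control day 4 cells 4.37% and 11.2%. Mki67 illustrates this: 32.4% of its KO day 0 UMIs lay in 1 cell, and control day 0 cells had 7.86 CPM against 102 CPM in control day 4 cells, a ratio of 12.95. Replication-dependent histone genes, transcribed during DNA synthesis, had 27 of 45 members higher and 1 lower, beside 5.12% and 1.08% of all genes. Their median log2 ratio was 0.76, and 1 KO day 0 cell held 26.1% of their UMIs. With the cells that pass a dividing gate left out, 2 of 19 division genes and 0 of 23 histone genes with enough UMIs were past the fold upward. Over all genes this was 232 of 9258. The median log2 ratios of the 2 lists were 0.21 and -0.05. The dividing gate, defined further on, is itself set on UMIs of division genes, so a fall of the division list is built into its rule.

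Promoters of the division genes were read because the group moved together. CCAAT is the letter pattern bound by the factor NF-Y and recurs in promoters of mitotic genes, and the 3 promoters with the most matches are shown from 150 bases before to 50 after the transcription start, on build GRCm38.p6 from RefSeq. Capitals mark CCAAT or its reverse complement ATTGG.
Cdca8, minus strand, chr4:124936868-124937067: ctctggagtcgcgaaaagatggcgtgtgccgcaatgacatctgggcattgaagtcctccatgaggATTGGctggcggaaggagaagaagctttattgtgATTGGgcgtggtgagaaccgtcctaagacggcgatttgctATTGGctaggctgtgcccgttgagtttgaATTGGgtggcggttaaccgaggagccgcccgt
Top2a, minus strand, chr11:99024140-99024339: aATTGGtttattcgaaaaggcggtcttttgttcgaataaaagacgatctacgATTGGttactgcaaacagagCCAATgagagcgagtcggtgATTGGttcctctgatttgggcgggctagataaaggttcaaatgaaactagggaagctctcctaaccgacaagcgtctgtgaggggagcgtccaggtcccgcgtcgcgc
Cks2, plus strand, chr13:51645082-51645281: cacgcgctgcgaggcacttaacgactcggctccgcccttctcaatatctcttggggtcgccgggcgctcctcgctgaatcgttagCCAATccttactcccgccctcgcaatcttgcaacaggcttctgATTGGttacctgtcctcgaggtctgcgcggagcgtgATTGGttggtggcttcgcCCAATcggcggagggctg
Each holds 4 matches, and the genes were 3.36-fold, 2.75-fold and 2.53-fold higher in KO day 4 than in KO day 0 cells. Of the 29 division genes past the fold, 25 had a promoter entry, and 19 of them (76.0%) held CCAAT on either strand, against 8619 of 27025 promoters of the same length (31.9%). At least 2 matches occurred in 16 of the 25 (64.0%) and in 2276 of all promoters (8.42%). The pattern TTTGAA, part of the cell cycle homology element, or its complement TTCAAA occurred in 11 of the 25 (44.0%) and in 3455 of all (12.8%). These are matches of letters, not measured binding.

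Naive and quiescence genes were slightly lower on day 4. None of 26 was past the fold upward and 2 were past it downward, beside 5.12% and 1.08% of all genes. The median log2 ratio was -0.25 and 18 of the 26 intervals lay below 1. Il7r, the interleukin-7 receptor that keeps resting T cells alive, stood at 305 CPM in KO day 4 and 471 CPM in KO day 0 cells (0.648, 0.620 to 0.677). Tdrp was at 24.3 and 41.4 CPM (0.585, 0.502 to 0.684). Lef1, a transcription factor of naive T cells, was at 395 CPM in KO day 4 and 555 CPM in KO day 0 cells (0.712), and the lymph node homing receptor Ccr7 at 248 and 304 CPM (0.818). Klf2, which keeps T cells in circulation, stood at 551 CPM in KO day 4 and 569 CPM in KO day 0 cells (0.968, 0.931 to 1.01). In control cells Il7r and Ccr7 stood at 0.540 and 0.633 of the day 0 level. T cell identity genes, such as Cd3e at 828 CPM in KO day 4 and 816 CPM in KO day 0 cells, had none of 15 past the fold.

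Activation and effector genes were mixed. Anxa2, a membrane scaffold protein, stood at 87.9 CPM in KO day 4 and 17.9 CPM in KO day 0 cells (4.92-fold, 4.04 to 6.06). The calcium-binding protein gene S100a6 was at 429 and 164 CPM (2.61-fold), and the galectin gene Lgals1 at 433 and 213 CPM (2.03-fold). Ccr2, a receptor for inflammatory chemokines, was at 24.4 CPM in KO day 4 and 11.1 CPM in KO day 0 cells (2.20-fold). Beside 5.12% and 1.08% of all genes, 6 of 24 effector and memory genes were past the fold upward, these 4 among them, and 1 downward. The exception was Fasl, encoding a death ligand, at 4.92 CPM in KO day 4 and 8.49 CPM in KO day 0 cells (0.579, 0.410 to 0.828). Cd44, the usual protein marker of antigen-experienced cells, was at 43.2 and 39.4 CPM (1.10-fold, 0.9499 to 1.28).

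Inhibitory and costimulatory receptors had 8 of 25 members past the fold upward and none downward, beside 5.12% and 1.08% of all genes. Tigit, an inhibitory receptor, stood at 39.8 CPM in KO day 4 and 10.4 CPM in KO day 0 cells (3.83-fold, 2.95 to 5.06), and Lag3, another, at 16.5 and 4.33 CPM (3.82-fold, 2.54 to 5.97). Ctla4, which competes with CD28 for its ligands, was at 72.7 CPM in KO day 4 and 29.8 CPM in KO day 0 cells (2.44-fold). Regulatory T cell genes, which share Tigit and Ctla4 with that list, had 7 of 19 past the fold and none lower, at a median log2 ratio of 0.51. That median was 0.21 with KO day 0 cells weighted to the gate shares of day 4. Foxp3 itself was at 46.2 CPM in KO day 4 and 36.9 CPM in KO day 0 cells (1.25-fold, 1.08 to 1.46), under the fold.

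Most signalling, cytokine and homing lists had members past the fold both ways, beside 5.12% of all genes higher and 1.08% lower. Among 23 interleukin-2 and STAT5 genes 4 were higher and 1 lower: the cell cycle inhibitor gene Cdkn2c (2.46-fold), the interleukin-4 receptor gene Il4ra (2.05-fold, at 138 CPM in KO day 4 and 67.4 CPM in KO day 0 cells), Tnfrsf4 and Socs1 were higher, and Il7r was lower. Antigen receptor response genes had 3 of 25 higher and 2 lower, the higher being Lag3, Irf4 and Myc (1.54-fold, and 1.10-fold in control cells). The 2 lower ones were Nr4a2 (0.643) and Nr4a3 (0.652). Of 14 AP-1 and immediate early genes Maf and Batf were past the fold upward and none downward, at a median log2 ratio of -0.26. Jun stood at 59.0 CPM in KO day 4 and 83.7 CPM in KO day 0 cells (0.705, 0.635 to 0.784). Cytokine genes had 5 of 16 higher and 1 lower, and homing genes 4 of 22 higher and 1 lower, with Ccr4, a receptor linked to skin homing, at 2.61-fold and Cxcr4, a retention receptor, at 0.654. Of 32 helper T cell transcription factor genes 5 were higher and none lower, and of 12 BCL2 family genes 3 were higher, Bcl2a1d, Bcl2a1b and Bcl2l1.

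Metabolic and stress lists had at most 1 member past the fold upward, beside 5.12% of all genes. For the shorter lists a count of 0 or 1 is near that share. Oxidative phosphorylation genes had 0 of 79 past it at a median log2 ratio of 0.20, cytosolic ribosomal protein genes 0 of 83 at -0.10, heat shock genes 0 of 21 and antigen presentation genes of MHC class I 0 of 20. MYC target genes had 1 of 26 higher (Myc), glycolysis genes 1 of 17 (Tpi1, 1.61-fold) and secretory pathway genes 1 of 22 (Sdf2l1, 1.60-fold). Glucocorticoid-induced genes had none higher and 3 of 16 lower, beside 1.08% of all genes, at a median log2 ratio of -0.37. Of 39 type I interferon response genes 1 was higher in KO cells, Ifi27l2a, at 2310 CPM in KO day 4 and 1270 CPM in KO day 0 cells (1.82-fold), at a list median of 0.08. In control cells 14 of 37 such genes were higher, beside 7.22% of all genes, at a median of 0.47. This difference between genotypes was not tested. Interferon-gamma induced genes had 1 of 23 higher at a median of -0.24, and T cell receptor beta variable genes 1 of 21 higher and 2 lower.

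**Figure D3:**
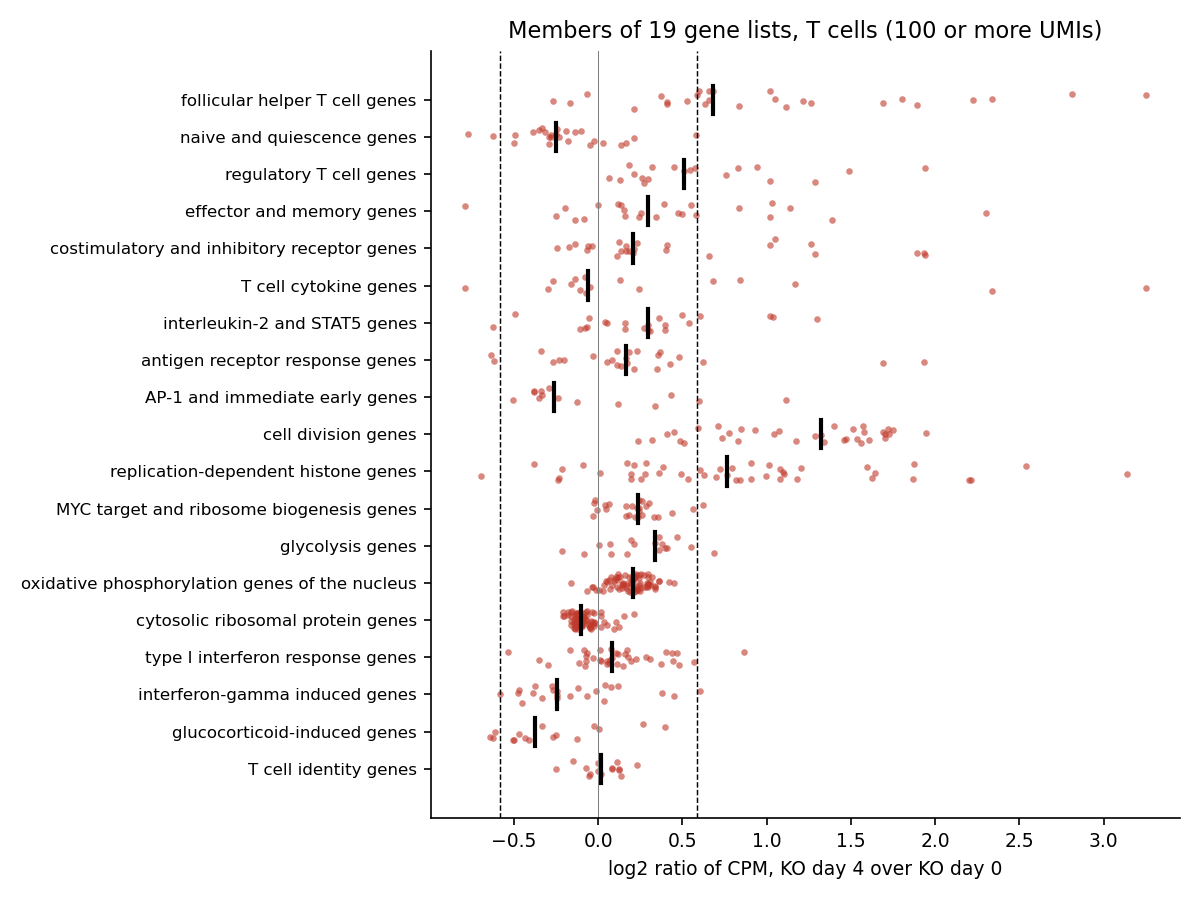
Ratio of KO day 4 to KO day 0 T cells (log2 of the CPM ratio) for each member with at least 100 UMIs of 19 gene lists, 1 row per list and 1 point per gene, with a bar at the list median and dashed lines at 1.5-fold. Division genes lie furthest above 0 as a group, with a median of 1.32, followed by histone genes at 0.76 and follicular helper genes at 0.68. The natural killer and innate-like marker list, with a median of 0.999, is not among the lists shown.

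The highest single genes outside these groups were mostly rare transcripts. Smtn, encoding the actin-binding protein smoothelin on chr11:3517523-3540612 (mm10), had 311 UMIs in KO day 4 and 6 in KO day 0 cells (13.3-fold, 6.02 to 36.4), and a control ratio of 11.1. Thinned to 1500 UMIs per cell its KO ratio was 4.76. BC049352 had 166 and 3 UMIs, a ratio of 14.2 with an interval of 4.76 to 69.3, and a control ratio of 5.10, and its KO ratio was 3.97 when thinned. Fam240a was at 12.5 CPM in KO day 4 and 2.08 CPM in KO day 0 cells (6.01-fold, 3.39 to 11.8), seen in 244 and 12 cells. Other genes of this group were Popdc2 (6.65-fold), Neb, the giant sarcomere protein gene nebulin (5.66-fold), the spindle checkpoint kinase gene Bub1b (5.53-fold), Ica1l (5.19-fold), Tspan9 (4.35-fold) and Dtl, a ubiquitin ligase adaptor gene of replication licensing (4.30-fold). The linker histone gene Hist1h1a was 5.81-fold higher with dividing cells and 1.63-fold without them.

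Adamts13, encoding the protease that cuts von Willebrand factor, went the other way in control cells, on few control UMIs. It had 142 UMIs in 128 KO day 4 cells and 8 in 8 KO day 0 cells, or 6.30 and 1.39 CPM (4.54-fold, 2.24 to 10.7). In control cells it stood at 1.05 CPM on day 4 and 3.47 CPM on day 0 (0.304, 0.136 to 0.675), from 14 and 15 UMIs. The KO B cells of the other library had a ratio of 4.57 (1.99 to 12.9), so the difference was present in both libraries of the KO mice. Within the naive gate it was 5.94-fold in KO cells and 0.646 in control cells.

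The lowest genes were led by Gm47283, a predicted gene annotated to chrY:90784738-90816464 (mm10), at 57.3 CPM in KO day 4 and 157 CPM in KO day 0 cells (0.366, 0.336 to 0.398). Its ratio was 0.531 in control T cells and 0.408 in KO B cells. The annotated Y genes Ddx3y, Eif2s3y, Kdm5d and Uty had 6 UMIs in all in KO day 4 and 0 in KO day 0 cells. Ly6c1, a surface protein of naive and memory subsets, was at 86.3 CPM in KO day 4 and 197 CPM in KO day 0 cells (0.439, 0.408 to 0.473), with a control ratio of 0.528. Dapk1, encoding a death-associated kinase, was at 4.74 and 11.96 CPM (0.397), and Lef1os1, annotated opposite Lef1, at 24.5 and 52.0 CPM (0.471). Gm21887, annotated to the X chromosome, was at 10.1 and 21.5 CPM (0.468) and had nearly the same ratio in control T cells (0.454) and in KO B cells (0.448). Dntt, the polymerase that adds bases at receptor gene joints, was at 3.77 CPM in KO day 4 and 6.93 CPM in KO day 0 cells (0.544), and the remaining genes of this end, Tbc1d16, Stx2, Gm16083, Gm19705, Gm11998, Smim40, 2610507I01Rik, Slc30a1 and Zfp90, lay between 0.463 and 0.547.

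Markers of other cell types were low or rested on single cells. Natural killer and innate-like markers had 6 of 11 measured members past the fold upward and none downward, beside 5.12% and 1.08% of all genes. Their median log2 ratio was 0.999, and 0.425 without cells over 15000 UMIs. The summed level was 151 CPM in KO day 4 and 95.3 CPM in KO day 0 cells. In control day 4 and control day 0 cells it was 154 and 171 CPM. Ncr1, which defines natural killer cells, had a UMI in 3 KO day 4 cells and 1 KO day 0 cell. Hemoglobin RNA stood at 143 CPM in KO day 4 and 1289 CPM in KO day 0 cells and lay to 95.3% and 99.6% in 1 cell of each pool. Myeloid markers summed to 140 CPM in KO day 4 and 126 CPM in KO day 0 cells, and B cell markers to 245 and 253 CPM, mostly Ighm at 217 and 227 CPM, with 3 and 4 of the 16 markers at 0. Their part in the gene lists was not tested beyond leaving out the hemoglobin-rich cells, after which 485 genes were higher and 102 lower.

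Gates on marker UMIs split the pools into subsets. As a gate needs a UMI, each cell was first thinned to 1500 UMIs, which left out 10 KO day 4 and 8 KO day 0 cells as too shallow. A Foxp3 UMI, the gate for regulatory T cells, was found in 5.62% of KO day 4 (4.89 to 6.42%) and 3.89% of KO day 0 cells (2.85 to 5.17%), a ratio of 1.45 (1.04 to 2.04), and in 10.1% and 6.78% of unthinned cells. B cells, which should lack it, passed at 0.103% and 0%, the zero allowing up to 0.306%. Cells of this gate had Il2ra at 267 CPM against 17.7 CPM outside, and Ikzf2 at 530 against 68.3 CPM. The naive gate, set on naive cell markers and no Cd44 UMI, held 48.4% of KO day 4 and 54.4% of KO day 0 cells (0.890, 0.812 to 0.976), but 49.9% and 51.3% of B cells also passed it, so the gate is not particular to T cells. The Cd44 gate held 2.93% and 2.33% of thinned KO day 4 and KO day 0 cells (1.26, 0.818 to 1.997), near the 2.31% and 2.45% of B cells that passed it, and 0.810 of the day 0 share when unthinned.

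The follicular helper gate, a UMI of both Cxcr5 and Pdcd1, was too sparse after thinning, with 5 cells in KO day 4 and 2 in KO day 0. Unthinned it held 66 KO day 4 cells (1.80%) and 5 KO day 0 cells (0.429%), a ratio of 4.21 (1.71 to 13.4), but the gated cells had median depths of 11987.5 and 3845 UMIs. At 3000 UMIs the shares were 0.570% and 0.294%, a ratio of 1.94 with an interval of 0.571 to 10.2. A higher share on day 4 was thus not detectable at equal depth, and 0 of 1946 and 979 thinned KO day 4 and KO day 0 B cells passed the gate, which allows up to 0.154% and 0.306%. Cells of this gate had Il21 at 98.1 CPM against 5.11 CPM in other KO T cells, Il4 at 260 against 9.59 CPM and Bcl6 at 147 against 16.4 CPM.

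Dividing cells, gated by UMIs of at least 2 of Mki67, Top2a, Birc5, Cdk1, Ccna2 and Ccnb2, made up 1.78% of thinned KO day 4 cells (1.38 to 2.27%) and 0.604% of KO day 0 cells (0.243 to 1.24%), a ratio of 2.95 (1.35 to 7.62). Control cells had 2.23% on day 4 and 0.220% on day 0. Unthinned, the gate held 128 KO day 4 and 10 KO day 0 cells, with median depths of 15364 and 5573.5 UMIs. Of the 128 cells 35 also passed the Foxp3 gate, 23 the naive gate and 15 the follicular helper gate. KO B cells also differed by day in this gate, with 1.90% on day 4 and 0.715% on day 0. The innate-like gate held 1.18% of KO day 4 and 0.9499% of KO day 0 cells (1.24, 0.629 to 2.67), and 1.52% and 2.42% of control day 4 and control day 0 cells.

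**Figure D4:**
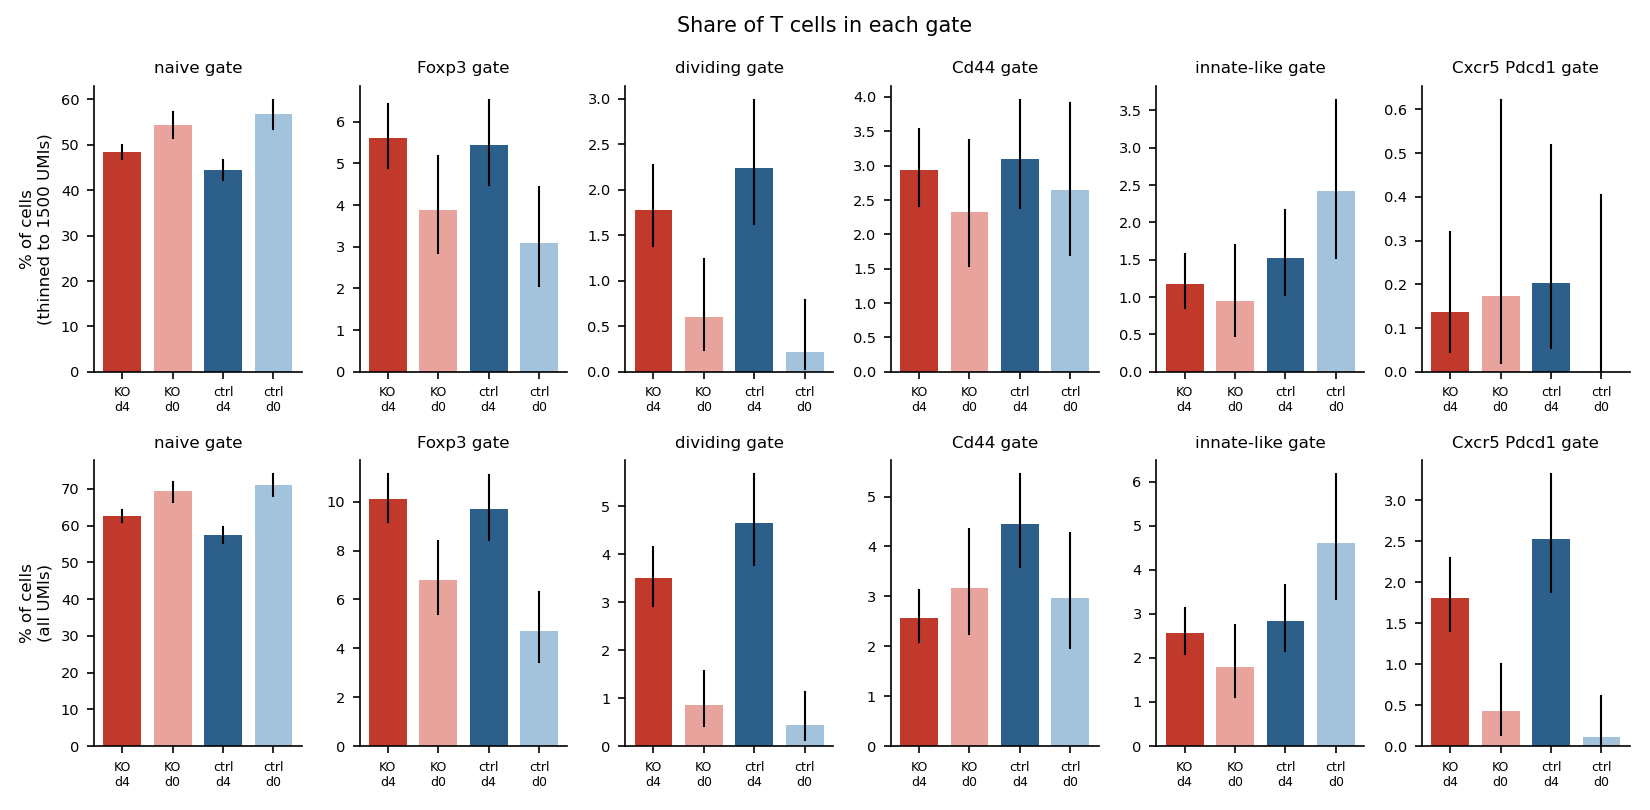
Share of T cells in each gate (percent, each panel from 0) in the 4 pools, after thinning each cell to 1500 UMIs in the upper row and at full depth in the lower row, with lines for the 95% binomial interval. In the upper row KO day 4 lies above KO day 0 for the Foxp3 gate (5.62% and 3.89%) and the dividing gate (1.78% and 0.604%) and below it for the naive gate (48.4% and 54.4%).

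Values within gates were taken at full depth, here and below. The Foxp3 gate then held 370 KO day 4 and 79 KO day 0 cells, and division and histone genes were again higher in it. At 50 UMIs or more, 967 of 6422 genes were at least 1.5-fold higher (15.1%) and 359 lower (5.59%). The gate held 2590479 UMIs in KO day 4 and 391260 in KO day 0 cells. Genes high on day 4 therefore pass the filter more easily, and the 2 shares are not like for like. Of 34 division genes 33 were higher, of 37 histone genes 30, of 20 effector and memory genes 7, and of 20 regulatory T cell genes 2. The highest named genes, Ints3, Tubg1, Bub1b, Abtb2 and Atl2, each had 1 UMI on day 0 and 50 to 59 on day 4, with the interval for Ints3 at 1.54 to 358. Gm47283 was again lowest, at 52.5 CPM in KO day 4 and 158 CPM in KO day 0 cells of the gate (0.331, 0.244 to 0.455), followed by Ivd, Zfp467, Dtx3 and Snap29.

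In the naive gate, 2292 KO day 4 and 808 KO day 0 cells, 336 of 9469 genes were at least 1.5-fold higher (3.55%) and 185 lower (1.95%). At this depth 72.8% of KO day 4 and 71.2% of KO day 0 B cells also passed the gate. It held 23 of the 128 dividing KO day 4 cells as well. The values below are thus those of a mixed gate and cannot be assigned to naive T cells. Follicular helper genes had 11 of 24 higher and none lower, regulatory T cell genes 8 of 14, effector and memory genes 7 of 19, division genes 7 of 25, and T cell identity genes 0 of 15. Eomes, a T-box transcription factor of cytotoxic and memory cells, stood at 9.22 CPM in KO day 4 and 0.9996 CPM in KO day 0 cells of the gate, a ratio of 9.22 (3.51 to 34.4). Anxa2 was at 27.6 and 3.50 CPM (7.88-fold, 4.64 to 14.6), Lag3 at 10.9 and 1.75 CPM (6.25-fold) and Fam240a at 16.9 and 2.999 CPM (5.63-fold). The lowest were 4930532G15Rik at 0.313, Car2, a carbonic anhydrase gene, at 0.340, Stx2 at 0.349, Capn3 at 0.357 and Lrrc75b at 0.375, each at under 10 CPM in both pools.

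Within the Cd44 gate, 94 KO day 4 and 37 KO day 0 cells, 239 of 2357 genes were higher (10.1%) and 166 lower (7.04%), and 7 of 8 division genes were higher. Hif1a, the oxygen-responsive transcription factor gene, stood at 185 CPM in KO day 4 and 74.3 CPM in KO day 0 cells (2.49-fold, 1.43 to 4.70). Eapp was 4.21-fold higher (1.55 to 15.99). Hcst, encoding the DAP10 adaptor, was at 467 and 903 CPM (0.517, 0.426 to 0.628), and Cd40lg at 127 and 244 CPM (0.519, 0.356 to 0.764). The innate-like gate, with 94 and 21 cells, had 255 of 2187 genes higher (11.7%) and 161 lower (7.36%).

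The KO and control ratios were set side by side for every gene counted in both. Among genes with at most 10% of the UMIs of the higher pool in 1 cell in either genotype, those whose KO ratio exceeded the control ratio most, apart from BC049352, were Zcwpw1 (2.89 times the control ratio), 1110032F04Rik (2.80), Afp (2.76) and Aste1 (2.36). That limit left out Klrb1c (4.88 times the control ratio), Klrk1 (4.33), Slamf7 (3.30) and Xcl1 (3.07), genes of natural killer and innate-like cells for which 1 cell held 13.2%, 11.4%, 27.5% and 22.5% of the control day 0 UMIs. 1110032F04Rik stood at 8.25 CPM in KO day 4 and 2.95 CPM in KO day 0 cells, and at 6.02 and 6.01 CPM in control day 4 and control day 0 cells. The Zcwpw1 ratio was 1.12 (0.766 to 1.69) in KO and 0.389 in control cells. The Afp ratio was 1.37 (0.933 to 2.06) in KO and 0.495 in control cells. The KO intervals of both genes thus include 1. Aste1 had a ratio of 1.71 (1.15 to 2.62) in KO and 0.725 in control cells. At the other end, under the same limit, lay Gm26740, at 126 CPM in KO day 4, 135 CPM in KO day 0, 119 CPM in control day 4 and 3.01 CPM in control day 0 cells, so that the control day 0 pool alone stood apart. The division genes Kif11, Cenpe and Tk1 followed, at 0.0684, 0.0801 and 0.0949 of the control ratio, along with Angptl2 at 0.0698. These 4 genes had 3, 3, 2 and 3 UMIs in control day 0 cells, and the intervals are wide (0.0212 to 0.221 for Kif11). Kif11 was at 18.8 CPM in KO day 4 and 18.3 CPM in control day 4 cells, and at 10.4 CPM in KO day 0 and 0.694 CPM in control day 0 cells, and 1 cell held 45.0% of its KO day 0 UMIs.

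**Figure D5:**
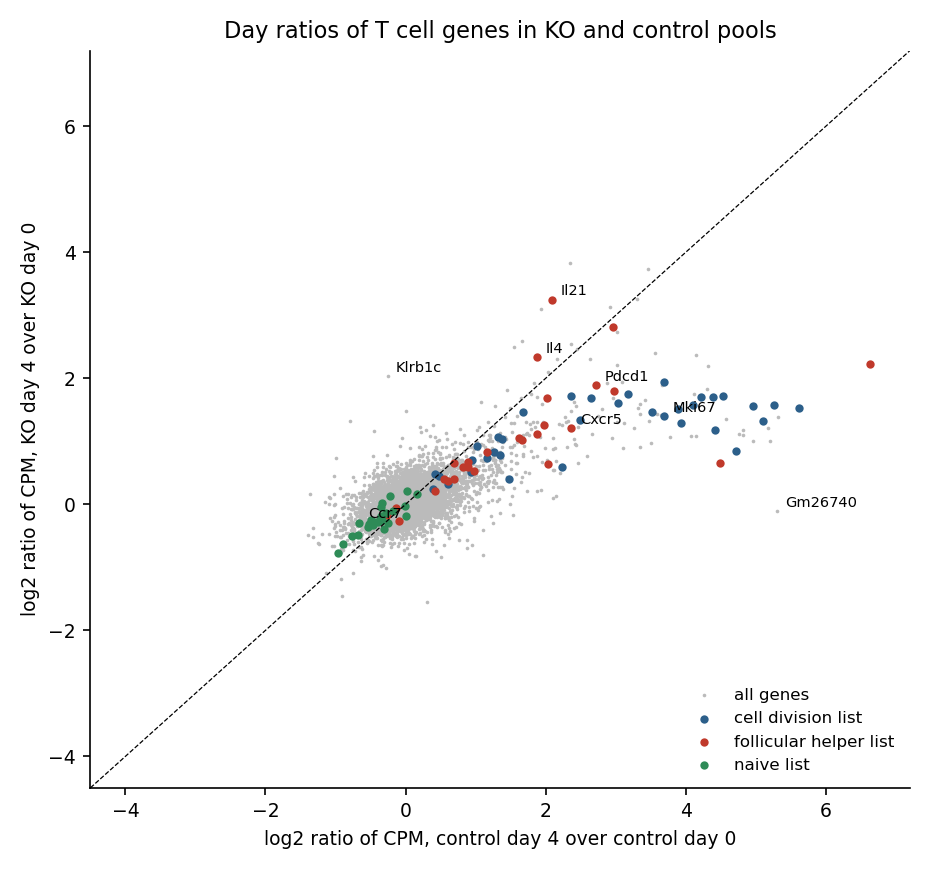
Ratio of day 4 to day 0 (log2 of the CPM ratio) in KO T cells (vertical axis) against the same ratio in control T cells (horizontal axis) for 8801 genes with at least 100 UMIs in each genotype, with 5 more outside the axes, 3 gene lists in color and a dashed line of equal ratios. Most division genes, such as Mki67 (2.64-fold in KO and 12.95-fold in control cells), lie below the dashed line, and Il21 and Il4 above it.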

How the data were processed

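The deposited matrices hold raw UMI counts per gene and hashtag for every barcode, made by the authors with Cell Ranger 5.0.0 on mm10 per the submitters' processing notes. The T library was used for the comparison and the B library as background. From the counts, UMIs were summed over the cells of a pool, scaled to 1000000 per pool (CPM), and compared as ratios with exact conditional binomial 95% intervals (Python 3.11.15, numpy 2.4.6, scipy 1.17.1, pandas 2.3.3). A gene counted from 100 UMIs over both pools, or 50 within a gate, and as higher or lower from 1.5-fold. Doublets were removed only by the hashtag margin, so those within a pool remain.

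Named genes were the 15 highest and 15 lowest with an interval that excludes 1, at most 10% of UMIs in 1 cell, a UMI in at least 2% of cells and no receptor segment, then up to 3 each way per list, 5 per gate and 5 between genotypes, where the limit of 10% in 1 cell was applied in both genotypes after seeing the data. List members that define a list were named too. The members and gene lists were chosen with earlier results of these data known. Intervals were tested on simulated Poisson counts drawn for each gene on its own. Those counts leave out the clustering of UMIs in single cells seen in the data. Positions are from GENCODE vM21, which matched 32158 of 32285 gene identifiers. A marker that the naive and Cd44 gates use is not reported here.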

Additional observations from a re-analysis of the deposited data

Results flagged for a closer look

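The KO and control day ratios pointed in opposite directions for 5 genes named from the marker and receptor lists, with intervals on opposite sides of 1, and none of these differences was tested. Klrk1, an activating receptor of natural killer and innate-like cells, was at 5.63 CPM in KO day 4 and 2.25 CPM in KO day 0 cells, a ratio of 2.50 (1.41 to 4.82), and its control ratio was 0.577 (0.394 to 0.854). Trbv17, a T cell receptor beta variable gene, had a ratio of 0.576 (0.469 to 0.710) in KO and of 2.14 (1.56 to 3.02) in control cells, and 1 cell held 14.0% of its KO day 0 UMIs. The hemoglobin genes Hba-a1, Hbb-bs and Hbb-bt had KO ratios of 0.102, 0.116 and 0.0884 and control ratios of 512 (91.7 to 20222, on 1 UMI in control day 0), 185 and 156, with at least 98.6% of the KO day 0 UMIs in 1 cell.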

How the results depend on the processing

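No paired analysis was possible because each pool was 1 sample and no result came from a test. The counts of 489 higher and 103 lower genes moved with the UMI filter and with depth. The higher count alone also moved with the largest cells and with dividing cells. Without cells over 15000 UMIs 247 genes were higher, 227 of them among the 489. Thinned to 1500 UMIs per cell, 204 were higher and 63 lower of 6647 genes, 75 and 18 of them shared. With at least 20 UMIs per gene 1134 were higher and 454 lower, and with only a UMI in each pool required 1612 and 1671. Leaving out dividing cells, chosen after seeing the data like the hemoglobin-rich cells and the gates with no condition on Cd8b1, gave 232 higher genes. The other settings stayed within 1.5 times: a hashtag margin of 5, no lineage rule, mitochondrial share under 5%, equal weight per cell, median-ratio scaling (which moved all log2 ratios by -0.03), KO day 0 weighted to the day 4 gate mix, hemoglobin-rich cells left out and genes led by 1 cell left out. The Cd44 gate ratio was below 1 without thinning (0.810) and at 3000 UMIs (0.800), against 1.26 at 1500; the other gate values that could be computed stayed within their intervals, and the follicular helper gate had no day 0 cell under 2 settings. Of 1599 values of named genes 1363 stayed within the main interval, 220 moved and 16 reversed, and of 640 list values 547 stayed and 93 moved. Reversed were Angptl2 (0.885) and Fcer1g (0.846) with equal weight per cell, and Fcer1g (0.945) without the lineage rule; Cd96 (1.07), Osm (1.16), Hsp90aa1 (0.998), Hyou1 (0.918) and Rps27l (0.988) when thinned; Cenpe (0.600) and Hist1h2bb (0.743) without dividing cells; Hbb-bs (1.07) and Hbb-bt (2.04) without hemoglobin-rich cells; and Il2ra (0.909) with the gate mix. Lyz2, with 94.2% of its UMIs in 1 cell, reversed to 0.115 without cells over 15000 UMIs, 0.351 when thinned and 0.468 with equal weight. Among named genes Il21 was 3.49-fold higher when thinned, 4.16-fold with equal weight and 4.51-fold with the gate mix. The causes were not tested.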
